A study of Mus musculus with 4 samples.

Results

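The genes of oxidative phosphorylation were described in the mouse mammary epithelium, by epithelial lineage and by stage of development. Members were taken by symbol: the Ndufa, Ndufb, Ndufc, Ndufs and Ndufv families of complex I with its Ndufaf assembly factors, Sdha to Sdhd of complex II, the Uqcr genes of complex III, the numbered Cox genes of complex IV, the Atp5 genes of complex V, and the subunit genes of the mitochondrial genome. This gave 105 genes of the 27998 listed, of which 92 are nuclear and 13 are mitochondrially encoded, and pseudogene symbols were left out. The nuclear members comprised 38 genes of complex I, 7 complex I assembly factors, 4 genes of complex II, 8 of complex III, 18 of complex IV and 17 of complex V. The mitochondrial members comprised 7 genes of complex I, 1 of complex III, 3 of complex IV and 2 of complex V. Placement followed the symbol, so Ndufa4, now regarded as a complex IV subunit, stayed with complex I, and Atp5s and Atp5sl, which are not subunits of the synthase, stayed with complex V.

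Oxidative phosphorylation passes electrons from NADH and succinate through complexes I and II to ubiquinone, and on through complex III and cytochrome c to oxygen at complex IV. Complexes I, III and IV pump protons across the inner mitochondrial membrane, and complex V, the ATP synthase, uses the return of the protons to make ATP. Complex II is encoded entirely in the nucleus, whereas the other complexes combine nuclear subunits with a catalytic or membrane core made from the mitochondrial genome.

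The cells came from the mammary glands of FVB/NJ mice with no treatment, and were sorted as total epithelium and profiled with the 10x Genomics Chromium 3′ assay, which counts molecules near the 3′ end of transcripts. Puberty was 5 weeks of age, and the adult glands were taken at 10 weeks either in estrus or in diestrus of the ovarian cycle. Each stage had 1 library of cells pooled from more than 1 mouse. Puberty had 2 count tables, but these shared 5387 barcodes, or 99.2% of the first, so the first table stood for puberty and 3 libraries were compared.

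These libraries held 5428, 2729 and 2439 barcodes in puberty, estrus and diestrus, with median counts per cell of 4103, 3236 and 3974, and other pairs of stages shared at most 24 barcodes. Cells were placed by fixed markers into basal-like, luminal progenitor-like and mature luminal-like classes, written here as basal, LP and ML, with intermediate luminal (Lum Int) and mixed basal-luminal cells between them. The LP class held 1769, 471 and 566 cells in puberty, estrus and diestrus, the ML class 2176, 783 and 680, and the basal class 1135, 1308 and 1048. Because the markers placed the cells, their levels describe the classes and are no test of the names: Krt14, a basal keratin, stood at 3753 to 7141 CPM (counts scaled to a common library size) in basal cells, Elf5, a transcription factor of luminal progenitors, at 277 to 568 CPM in LP cells, and Cited1, a marker of hormone-sensing cells, at 2546 to 5528 CPM in ML cells. In the other 2 of these classes they reached at most 76.5, 7.32 and 36.8 CPM. For the nuclear members the estrus library stood apart on short transcripts, as described with the stages.

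Members took a larger part of the transcriptome in ML cells than in LP cells in every library. Nuclear members held 3.70%, 2.90% and 3.76% of all counts of ML cells in the puberty, estrus and diestrus libraries (mean 3.45% ± 0.479, SD, n = 3 libraries). In LP cells they held 2.37%, 1.78% and 2.80% (2.32% ± 0.514), and in basal cells 3.04%, 2.02% and 3.19% (2.75% ± 0.636). The order ML, basal, LP held within each library, and estrus was the lowest in all classes. Over the libraries the ranges of LP and ML did not overlap, whereas that of basal cells overlapped with both.

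Mitochondrially encoded members followed another order. They held 1.27%, 1.04% and 0.752% of the counts of basal cells in puberty, estrus and diestrus, and 1.19%, 1.08% and 0.849% of those of ML cells. LP cells were lowest, at 0.739%, 0.598% and 0.579%, and did not overlap with either. Basal and ML cells could not be ordered, since basal was higher in puberty and ML in estrus and diestrus. The Lum Int cells lay between LP and ML for both sets in each library, with nuclear shares of 2.97%, 2.26% and 3.14%.

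**Figure D1:**
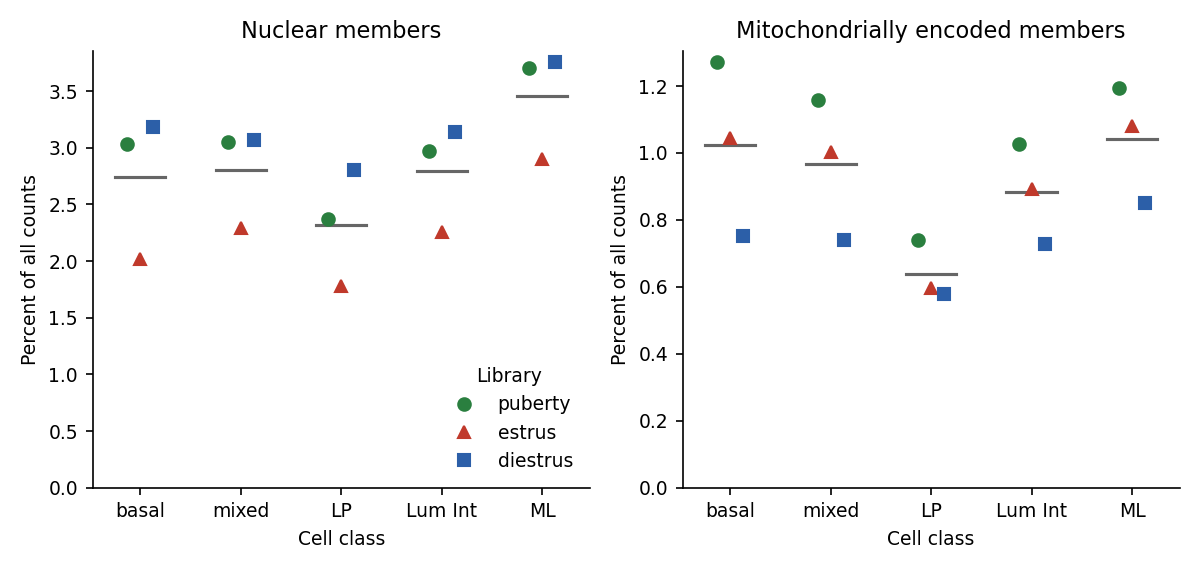
Percent of all counts on nuclear members (left) and on mitochondrially encoded members (right) in each cell class, with 1 point per library and a bar at the mean of the 3 libraries. ML cells are highest and LP cells lowest for nuclear members within each library, and the estrus triangles are the lowest point of every class on the left.

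Single cells showed the same order. The median cell of the puberty library had 2.76% of its counts on nuclear members in the basal class, 2.19% in LP and 3.64% in ML. The quartiles of LP and ML cells did not overlap there, with 1.89% to 2.62% in LP and 3.26% to 4.02% in ML. In estrus the medians were 1.79%, 1.67% and 2.86% in basal, LP and ML cells, and in diestrus 2.97%, 2.74% and 3.70%. The nuclear and the mitochondrial share were weakly related across the cells of a class, with Pearson's r from 0.01 to 0.10 in the basal and ML classes and from 0.09 to 0.32 in LP, as a description over cells that share a library.

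Complexes differed in how much of the transcriptome they held. The nuclear genes of complex I took 1.12% of counts in ML cells as the mean of the 3 libraries, 0.891% in basal and 0.725% in LP. Complex V took 0.988%, 0.843% and 0.719% in the same order, and complex IV 0.923%, 0.657% and 0.582%. Complex III took 0.320%, 0.255% and 0.211%, and complex II 0.0806%, 0.0777% and 0.0629%. Each complex was thus highest in ML and lowest in LP as a mean.

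The lineages were then compared gene by gene, to ask which members differed between LP, ML and basal cells beyond the spread of the 3 libraries. Counts were summed per class and library and fitted with edgeR's quasi-likelihood test, with library as a block and Benjamini-Hochberg adjustment over 11137 genes. With this block, the spread behind each p-value is how the differences between lineages varied over the 3 libraries. The libraries differ in stage, with 1 library each, so it is not a spread between animals of 1 stage. The low-count filter passed 87 of the 92 nuclear and 12 of the 13 mitochondrial members. Of the others, Cox6a2, Cox7b2 and Cox8c had no count in the 9 pseudobulks, which allows a level of up to 0.0684 CPM over all of them. Cox8b had 1 count, mt-Nd6 had 86 and Ndufa4l2 had 125.

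Between LP and ML cells, nuclear members were mostly higher in ML. Of the 87 tested, 54 were higher in ML and 3 in LP, with a median log2 fold change of −0.41 (LP over ML) beside 0.04 for all genes. Over all genes tested 19.2% were higher in ML and 21.8% in LP, and among the 1520 genes at 100 CPM or more the shares were 27.2% and 26.2%. The 62.1% of nuclear members higher in ML therefore lay above both backgrounds. Of the mitochondrial members, 9 of 12 were higher in ML and 0 in LP, with a median of −0.47. Within single libraries, 73, 78 and 78 of the 87 nuclear members were lower in LP than in ML in puberty, estrus and diestrus. The difference was larger for short transcripts. Of the 51 nuclear members under 1000 bases 40 were higher in ML and 1 in LP, with a median of −0.46, and of the 36 longer ones 14 (38.9%) and 2, with a median of −0.19. All tested genes under 1000 bases also leaned to ML, with 30.4% higher in ML, 16.6% in LP and a median of −0.12. All tested genes of 1000 bases or longer were higher in ML in 17.9% and in LP in 22.4% of cases. Spearman's rho of LP over ML and length was 0.42 over the nuclear members and 0.09 over all genes, as a description over genes, and the part of length in these differences was not tested. Without the library block the 63 members higher in ML numbered 5, and without the puberty library the 3 higher in LP numbered 0.

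Between basal and ML cells the nuclear members leaned the same way and the mitochondrial ones did not. Nuclear members were higher in ML for 44 genes and in basal cells for 6, with a median of −0.31 (basal over ML). All genes were called in 25.8% (higher in ML) and 29.7% (higher in basal) of cases, and genes at 100 CPM or more in 35.5% and 30.1%. Only mt-Cytb among the 12 tested mitochondrial members differed, being higher in ML, and the mitochondrial median was −0.04. The 6 members higher in basal cells became 3 in each fit that left out 1 library.

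Between basal and LP cells the picture was split by genome. Nuclear members were higher in basal cells for 19 genes and in LP for 11, with a median of 0.06 (basal over LP), against backgrounds of 22.7% and 22.6% over all genes and 24.1% and 32.1% at 100 CPM or more. Those 21.8% and 12.6% of nuclear members were not above the backgrounds. Mitochondrial members were higher in basal cells for 7 of 12 and in LP for 0, with a median of 0.43. The counts of all members in this comparison fell when a library was left out. The 26 higher in basal cells became 13 without puberty, 14 without diestrus and 25 without estrus. The 11 higher in LP became 2 without puberty, 7 without estrus and 9 without diestrus. These fits also had fewer libraries, and the part of this in the lower counts was not tested.

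Cytoplasmic ribosomal protein genes are set beside them for comparison, without matching for length or level. Of 78 tested, 16 (20.5%) were higher in LP and 5 (6.41%) in ML, with a median of 0.08, beside 21.8% and 19.2% of all genes. Between basal and LP cells 46 (59.0%) were higher in LP and 0 in basal, beside 22.6% and 22.7%. Between basal and ML cells they leaned the same way as the nuclear members. There 33 (42.3%) were higher in ML and 1 (1.28%) in basal, with a median of −0.20 (basal over ML), beside 25.8% and 29.7%. The difference between the gene sets was not tested.

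For each complex or gene set given here with 0 genes higher in 1 lineage by edgeR, the number was also 0 at an unadjusted p under 0.05 and with DESeq2.

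**Figure D2:**
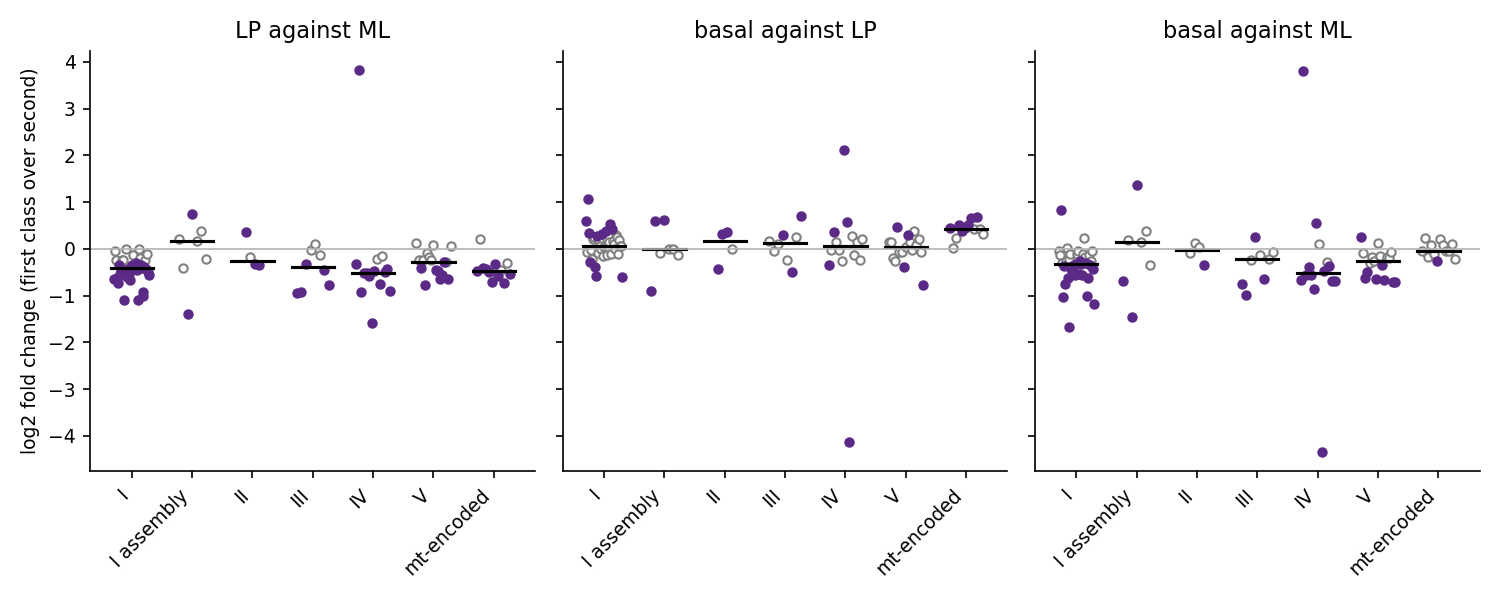
log2 fold change of each tested member in 3 lineage comparisons, by complex, with the mitochondrially encoded genes apart. Filled points passed an adjusted p of 0.05 and bars are medians, which lie below 0 for complexes I, II, III, IV and V and the mitochondrial genes in LP against ML.

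Complex I is the largest of the complexes. Of its 37 tested nuclear subunits 27 (73.0%) were higher in ML than in LP and 0 in LP, with a median of −0.42. Over all genes these shares were 19.2% and 21.8%. Between basal and ML cells 21 (56.8%) were higher in ML and 1 (2.70%) in basal, beside 25.8% and 29.7% of all genes. Ndufa7, an accessory subunit of the matrix arm, had 671, 273 and 651 CPM in ML cells of puberty, estrus and diestrus. It had 321, 135 and 284 CPM in LP cells and 203, 89.4 and 206 CPM in basal cells. Within each library the order was ML, LP, basal, and only the ranges of basal and ML did not overlap. Its log2 fold change was −1.09 ± 0.10 (SE) for LP over ML (adjusted p = 8.6e-06) and −1.67 ± 0.10 for basal over ML (adjusted p = 2.0e-07) in edgeR's quasi-likelihood test.

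Ndufs4, a matrix-arm subunit whose loss causes mitochondrial disease in mice and people, separated ML from both other lineages. It stood at 393, 278 and 288 CPM in ML cells, at 163, 142 and 172 CPM in LP cells and at 163, 135 and 175 CPM in basal cells. All ML libraries were above all LP and basal libraries. The log2 fold change was −1.01 ± 0.13 for LP over ML (edgeR adjusted p = 9.1e-05) and −1.02 ± 0.13 for basal over ML (adjusted p = 4.4e-05), and LP and basal differed by −0.01 ± 0.13. The RefSeq promoters of Ndufa7 and Ndufs4, from 250 bases before to 50 after the annotated start on GRCm38.p6, both hold the letters ATGGCGGC of the YY1 motif, in capitals below. They are shown for these letters and because both genes were higher in ML cells, not as typical of such genes. The letters were found in 7 of the 76 nuclear members matched to a promoter. Ndufa7 is read on the plus strand of chr17:33824322-33824621 and Ndufs4 on the minus strand of chr13:114388045-114388344.
Ndufa7: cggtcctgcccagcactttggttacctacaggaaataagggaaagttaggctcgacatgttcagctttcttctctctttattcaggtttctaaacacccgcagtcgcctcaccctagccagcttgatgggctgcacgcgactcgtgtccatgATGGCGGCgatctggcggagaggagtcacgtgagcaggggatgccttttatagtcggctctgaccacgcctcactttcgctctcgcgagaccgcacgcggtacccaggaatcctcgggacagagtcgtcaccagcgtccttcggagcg
Ndufs4: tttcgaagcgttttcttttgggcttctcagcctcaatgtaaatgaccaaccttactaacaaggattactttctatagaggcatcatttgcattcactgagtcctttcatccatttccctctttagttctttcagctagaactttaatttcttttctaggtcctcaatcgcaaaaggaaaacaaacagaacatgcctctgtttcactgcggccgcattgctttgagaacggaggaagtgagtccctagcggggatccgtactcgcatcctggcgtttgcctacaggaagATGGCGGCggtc

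Ndufc1, a small membrane-arm subunit, was low in LP cells. It had 144, 39.0 and 126 CPM in LP cells, 306, 87.4 and 258 CPM in ML cells and 210, 54.3 and 187 CPM in basal cells. The order LP, basal, ML held in each library, though the estrus values of all lineages fell below the others. The log2 fold change of LP over ML was −1.09 ± 0.11 (edgeR adjusted p = 1.4e-05), and that of basal over LP 0.53 ± 0.11 (adjusted p = 0.0020).

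Ndufv3 and Ndufa13 had their lowest values in basal cells within each library. Ndufv3, an accessory subunit beside the NADH-oxidising flavoprotein, had 64.6, 51.7 and 99.8 CPM in basal cells, 127, 73.4 and 126 CPM in LP cells and 185, 115 and 183 CPM in ML cells, and basal and ML cells did not overlap. Its log2 fold change of basal over ML was −1.17 ± 0.14 (edgeR adjusted p = 3.4e-05), and that of basal over LP was −0.60 ± 0.14 (adjusted p = 0.0052) but did not pass without puberty (−0.43, adjusted p = 0.072). Ndufa13, also known as GRIM-19, had 274, 122 and 274 CPM in basal, 336, 150.3 and 334 CPM in LP and 562, 264 and 521 CPM in ML cells, which overlap through estrus. Basal over ML was −1.02 ± 0.10 (edgeR adjusted p = 6.9e-06), while basal over LP was −0.29 ± 0.10 (adjusted p = 0.033) and did not pass in any fit that left out 1 library (−0.31 to −0.25).

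Ndufa11, a membrane-arm subunit, went the other way and was highest in basal cells. It had 527, 195 and 601 CPM in basal cells, 252, 98.7 and 272 CPM in LP and 272, 143 and 291 CPM in ML. Basal cells were above LP and ML within each library. The log2 fold change was 1.06 ± 0.13 for basal over LP (edgeR adjusted p = 5.7e-05) and 0.82 ± 0.13 for basal over ML (adjusted p = 0.00024), the latter being the only complex I subunit higher in basal than in ML cells. Ndufa1, a single-pass membrane-arm subunit encoded on the X chromosome, had 150, 30.5 and 139 CPM in basal and 95.4, 21.2 and 92.0 CPM in LP cells, a difference of 0.60 ± 0.11 (edgeR adjusted p = 0.0013).

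The complex I assembly factors, which build the complex and are not part of it, were split between LP and ML. Of the 7 tested, 1 was higher in LP and 1 in ML (14.3% each, below the 21.8% and 19.2% of all genes), with a median of 0.16. Ndufaf3 had 71.8, 83.0 and 80.2 CPM in ML cells, 26.7, 32.7 and 30.9 CPM in LP and 24.4, 28.8 and 31.8 CPM in basal cells. ML stood above both without overlap, by −1.39 ± 0.13 for LP over ML (edgeR adjusted p = 9.3e-06) and −1.47 ± 0.13 for basal over ML (adjusted p = 2.7e-06). Ndufaf4, which acts together with Ndufaf3 in the same early step, had the opposite order, with 64.1, 34.0 and 52.9 CPM in basal cells, 45.8, 22.4 and 28.7 CPM in LP and 19.1, 14.6 and 24.8 CPM in ML. Basal and ML did not overlap, and the log2 fold change of basal over ML was 1.37 ± 0.19 (edgeR adjusted p = 0.00011). That of LP over ML, 0.75 ± 0.20 (adjusted p = 0.012), became 0.35 without puberty and no longer passed (adjusted p = 0.28 with edgeR).

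Ndufaf1, a factor for the membrane arm, was lowest in basal cells, at 4.69, 9.96 and 10.9 CPM beside 14.4, 17.8 and 14.5 CPM in LP cells. These did not overlap (−0.91 ± 0.25, edgeR adjusted p = 0.011), but the difference did not pass without puberty or without estrus (edgeR adjusted p = 0.095 and 0.053). The promoters of Ndufaf4 and Ndufa11, the complex I genes that were higher in basal than in ML cells, are shown because each holds GCGCATGC, a core of the NRF1 motif, or its reverse complement GCATGCGC. NRF1 is a transcription factor known for binding promoters of respiratory genes, and overlapping copies on opposite strands run together in the capitals. Both are on the plus strand of GRCm38.p6, Ndufaf4 at chr4:24897833-24898132 and Ndufa11 at chr17:56717512-56717811.
Ndufaf4: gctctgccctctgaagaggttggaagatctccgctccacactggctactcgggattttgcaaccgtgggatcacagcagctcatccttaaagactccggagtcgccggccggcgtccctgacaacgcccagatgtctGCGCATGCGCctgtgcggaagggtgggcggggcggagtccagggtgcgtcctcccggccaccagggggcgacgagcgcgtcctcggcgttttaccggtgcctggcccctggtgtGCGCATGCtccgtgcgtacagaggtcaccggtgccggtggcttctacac
Ndufa11: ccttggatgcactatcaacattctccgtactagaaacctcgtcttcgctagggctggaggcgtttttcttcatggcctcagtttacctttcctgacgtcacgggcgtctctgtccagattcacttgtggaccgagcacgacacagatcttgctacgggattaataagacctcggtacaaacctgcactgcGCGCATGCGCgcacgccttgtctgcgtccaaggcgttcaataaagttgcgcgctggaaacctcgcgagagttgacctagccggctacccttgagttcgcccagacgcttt

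Over the nuclear members as a whole, 76 of 92 were matched to a RefSeq promoter. The NRF1 core was found on either strand in 12 of these 76 genes (15.8%), against 3.05% of the 27025 genes with a promoter in the table. The ETS letters ACCGGAAG were found in 7 genes (9.21%) against 2.60%, and the YY1 letters in 7 (9.21%) against 2.61%. At least 1 of these motifs was present in 25 members (32.9%) and in 7.79% of all genes. The letters of a motif in a window are a description and were not set against the levels. Members with no window included Ndufs1, Sdhc, Cox4i2, Ndufaf6, Uqcrc2, Cox6a2, Ndufa4l2, Cox4i1, Uqcrq, Uqcrb, Cox8c, Cox6c, Ndufb9, Ndufa2 and Atp5a1.

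**Figure D3:**
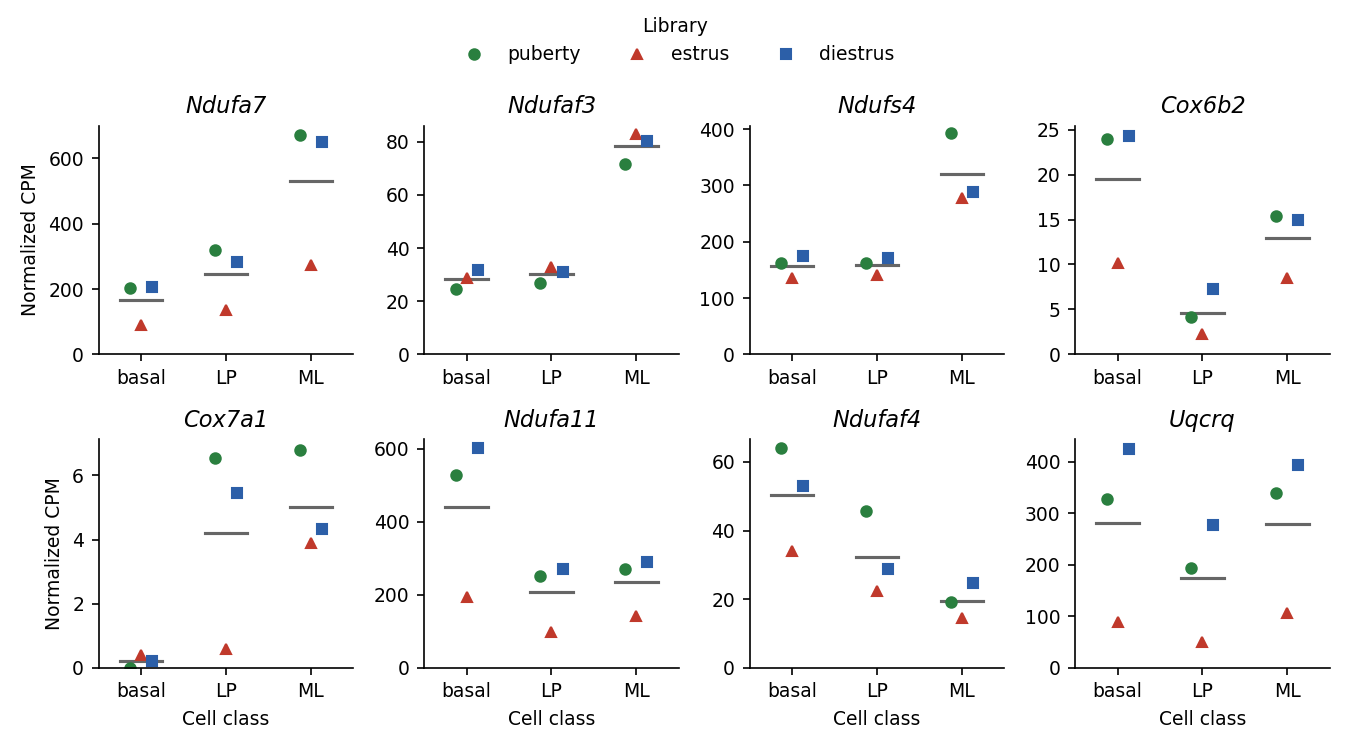
Normalised CPM of 8 members in basal, LP and ML cells, with 1 point per library and a bar at the mean. Ndufa7, Ndufaf3 and Ndufs4 are highest in ML cells in each library, Ndufa11 and Ndufaf4 in basal cells, Cox6b2 is lowest in LP cells and Cox7a1 is near 0 in basal cells.

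Complex II links the tricarboxylic acid cycle to the chain, and its 4 genes did not share 1 direction. Sdha, the flavoprotein that oxidises succinate, had 128, 149 and 124 CPM in LP cells, 91.6, 126 and 98.9 CPM in ML and 96.7, 102 and 97.3 CPM in basal cells. LP was higher than basal in all libraries without overlap (basal over LP −0.43 ± 0.12, edgeR adjusted p = 0.010). LP over ML was 0.35 ± 0.11 (edgeR adjusted p = 0.031), and it did not pass in any of the 3 fits that left out 1 library (0.24 without puberty, 0.37 without estrus and 0.30 without diestrus). Basal over LP did not pass without puberty (−0.46, edgeR adjusted p = 0.051) or without estrus (−0.34, adjusted p = 0.099). Sdhb, the iron-sulfur subunit, had 250, 254 and 261 CPM in LP cells, 307, 276 and 287 CPM in ML and 338, 277 and 341 CPM in basal cells, and basal over LP was 0.32 ± 0.11 (edgeR adjusted p = 0.030), which did not pass without puberty (0.24) or without diestrus (0.30).

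Sdhc and Sdhd anchor complex II in the membrane. Sdhc was lower in LP cells, with 103, 97.5 and 101 CPM, than in ML cells with 129, 131 and 120 CPM or basal cells with 128, 132 and 130 CPM. Sdhd was higher in ML cells, with 245, 256 and 243 CPM, than in LP cells with 203, 169 and 217 CPM. The edgeR log2 fold changes of LP over ML were −0.33 (adjusted p = 0.028) and −0.35 (adjusted p = 0.045). Neither passed without puberty (−0.38 for Sdhc and −0.43 for Sdhd) or without estrus (−0.33 and −0.26). Of the 4 genes, Sdha alone was called higher in LP than in ML. The promoter of Sdhb, plus strand of chr4:140961021-140961320 on GRCm38.p6, is shown as the one complex II window that holds both the NRF1 core, here as GCATGCGC, and the ETS letters ACCGGAAG.
Sdhb: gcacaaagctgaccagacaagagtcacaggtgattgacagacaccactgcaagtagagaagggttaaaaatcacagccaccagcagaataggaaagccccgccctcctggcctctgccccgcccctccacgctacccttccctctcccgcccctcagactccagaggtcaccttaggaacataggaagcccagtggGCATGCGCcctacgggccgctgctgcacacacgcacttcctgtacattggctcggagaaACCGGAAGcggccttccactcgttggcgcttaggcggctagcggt

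Complex III was led by its small subunits. Of 8 tested genes 5 (62.5%) were higher in ML than in LP and 0 in LP, beside 19.2% and 21.8% of all genes. Uqcr10 had 596, 171 and 499 CPM in ML cells and 310, 77.4 and 302 CPM in LP cells, and Uqcr11 had 768, 202 and 797 CPM in ML and 402, 107 and 426 CPM in LP cells. For both the ML value was above the LP value of the same library, while the estrus value of ML fell below the other LP values. The log2 fold changes of LP over ML were −0.94 ± 0.13 for Uqcr10 (edgeR adjusted p = 0.00017) and −0.92 ± 0.11 for Uqcr11 (adjusted p = 4.6e-05).

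Uqcrq, which sits beside cytochrome b, was as high in basal as in ML cells. It had 327, 89.0 and 425 CPM in basal, 339, 106 and 394 CPM in ML and 194, 51.1 and 277 CPM in LP cells, and basal over LP was 0.71 ± 0.12 (edgeR adjusted p = 0.00064). Uqcrfs1, the Rieske iron-sulfur protein at the catalytic centre, was lower in basal cells, with 299, 287 and 290 CPM beside 506, 377 and 377 CPM in LP and 565, 430 and 391.9 CPM in ML. The basal values overlapped with neither, with −0.51 ± 0.12 against LP (edgeR adjusted p = 0.0042) and −0.64 ± 0.12 against ML (adjusted p = 0.00067), the former not passing without puberty (−0.40, edgeR adjusted p = 0.058).

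Complex IV had the largest nuclear median between LP and ML cells, −0.51. Of its 14 tested genes 11 (78.6%) were higher in ML and 1 (7.14%) in LP, beside 19.2% and 21.8% of all genes. Basal cells differed from ML by a median of −0.52. There 10 genes (71.4%) were higher in ML and 2 (14.3%) in basal, beside 25.8% and 29.7% of all genes. Cox5a, a matrix-side subunit, had 848, 587 and 738 CPM in ML and 475, 269 and 415 CPM in LP cells, without overlap (−0.93 ± 0.12, edgeR adjusted p = 7.8e-05). Cox8a had 1387, 574 and 1365 CPM in ML cells and 797, 276 and 747 CPM in LP cells, with the ML value above the LP value in each library (−0.91 ± 0.11, edgeR adjusted p = 5.5e-05).

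Several subunits of complex IV come in isoforms that tissues use differently, and the rare ones varied most. Cox4i1, the common isoform of the regulatory subunit IV, had 3076, 2266 and 2659 CPM in ML cells, 2713, 1844 and 1876 CPM in LP and 2031, 1529 and 1498 CPM in basal cells. It was highest in ML and lowest in basal cells within each library (basal over ML −0.67 ± 0.10, edgeR adjusted p = 0.00017). Cox4i2, the isoform known from lung and from low oxygen, had 7, 22 and 11 counts in basal cells, 31, 5 and 1 in LP cells and 3, 1 and 0 in ML cells of puberty, estrus and diestrus. Over the 3 libraries the level of LP cells was 14.1 times that of ML cells (95% interval 5.07 to 54.5) and that of basal cells 14.0 times (5.06 to 53.9).

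The intervals of these ratios are exact conditional intervals on the summed counts and cover counting error only. The fit gave 3.83 ± 0.83 for LP over ML (edgeR adjusted p = 0.0035) and 3.81 ± 0.82 for basal over ML (adjusted p = 0.0023) for Cox4i2, and without the puberty library the gene was too low to test. Most of the LP counts of Cox4i2 came from the puberty library. In estrus 10 of its 22 basal counts lay in the 40 of 1308 basal cells that had counts for 2 or more of 15 fibroblast, pericyte or endothelial markers. The markers are not particular to stromal RNA, as Dcn stood at 245 to 279 CPM in the basal class and 249 to 709 CPM in the ML class. Leaving out cells with 2 or more such markers from all classes, an alternative chosen after seeing the data, gave 4.92 for basal over ML (edgeR adjusted p = 0.0026).

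Ndufa4l2, the low-oxygen paralogue of Ndufa4, followed those cells more closely. It had 6, 93 and 15 counts in basal cells, 0, 0 and 6 in LP and 2, 2 and 1 in ML, and was too low to test. In estrus 69 of the 93 basal counts lay in the same 40 cells, in diestrus 11 of 15 in 40 of 1048 cells and in puberty 3 of 6 in 27 of 1135 cells. The part of non-epithelial RNA in its level was not tested further. Ndufa4 itself had 1079, 609 and 1103 CPM in ML, 847, 401 and 796 CPM in LP and 1094, 404 and 942 CPM in basal cells, and was higher in ML than in LP (−0.48 ± 0.12, edgeR adjusted p = 0.0081).

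Cox7a1, the isoform of subunit VIIa known from heart and skeletal muscle, was low in basal cells. It had 39, 1 and 15 counts in LP cells, 73, 17 and 15 in ML cells and 0, 2 and 1 in basal cells. On the summed counts ML cells had 25.01 times the level of basal cells (95% interval 8.33 to 123) and LP cells 19.98 times (6.49 to 99.9). The LP and ML libraries lay above all basal libraries, but for LP in estrus this rested on 1 count beside 2 in basal cells, too few to order them. The edgeR adjusted p was 0.0012 for basal against LP and 0.00042 for basal against ML, whereas LP and ML did not pass (adjusted p = 0.74). Cox7a2, the broadly used isoform, was abundant in all lineages, with 632, 238 and 630 CPM in ML, 393, 140 and 358 CPM in LP and 468, 151 and 491 CPM in basal cells.

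Cox6b2, the isoform of subunit VIb known from testis, was lowest in LP cells. It had 23.9, 10.2 and 24.3 CPM in basal, 15.4, 8.46 and 14.997 CPM in ML and 4.197, 2.29 and 7.27 CPM in LP cells. LP did not overlap with either, the log2 fold change being −1.58 ± 0.26 for LP over ML (edgeR adjusted p = 0.00056) and 2.12 ± 0.25 for basal over LP (adjusted p = 4.6e-05). Basal over ML was 0.54 ± 0.20 (edgeR adjusted p = 0.041) and did not pass in any fit that left out 1 library (0.43 to 0.64). Cox6b1, the common isoform, was instead lowest in basal cells, at 456, 141 and 539 CPM beside 548, 181 and 620 CPM in LP and 789, 302 and 861 CPM in ML (basal over ML −0.85 ± 0.11, edgeR adjusted p = 5.6e-05).

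The other isoform pairs had 1 expressed member. Cox6a1 had 969, 496 and 924 CPM in ML and 703, 315 and 672 CPM in LP cells (−0.52 ± 0.10, edgeR adjusted p = 0.0017), with no count for Cox6a2. Cox7b, from the X chromosome, had 372, 150 and 375 CPM in ML and 285, 103 and 248 CPM in LP cells (−0.50 ± 0.10, edgeR adjusted p = 0.0028), with no count for Cox7b2. Cox7a2l, which joins complexes III and IV into supercomplexes, had 715, 612 and 541 CPM in LP, 737, 670 and 654 CPM in ML and 549, 647 and 500 CPM in basal cells, and passed in no lineage comparison of the 3 libraries. Basal over ML did pass without estrus (−0.41, edgeR adjusted p = 0.025) and in 4 other alternatives (−0.34 to −0.29).

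Complex V differed less than complexes I and IV between LP and ML cells as a median, −0.28. Of its 17 tested genes 8 (47.1%) were higher in ML and 0 in LP, beside 19.2% and 21.8% of all genes. Atp5e, the epsilon subunit of the central stalk, had 512, 121 and 480 CPM in ML, 267, 70.0 and 323 CPM in LP and 440, 75.7 and 461 CPM in basal cells. LP was lowest in each library (LP over ML −0.78 ± 0.14, edgeR adjusted p = 0.0011; basal over LP 0.47 ± 0.14, adjusted p = 0.016), and basal over LP did not pass without puberty (0.32) or without diestrus (0.47). Atp5a1, the alpha subunit of the catalytic head, ran against the set, with 860, 699 and 740 CPM in basal and 655, 617 and 640 CPM in ML cells. Its small difference (0.26 ± 0.10, edgeR adjusted p = 0.038) did not pass in any fit that left out 1 library (0.14 to 0.30). Atp5b, the beta subunit of the head, is not among the genes the naming rule chose and is given for contrast, with 1240, 1263 and 1307 CPM in ML, 1096, 1003 and 1126 CPM in LP and 1271, 1080 and 1223 CPM in basal cells, and no lineage comparison passed for it.

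The c ring, which turns as protons pass, is encoded by 3 genes that give the same mature protein. Atp5g1 had 669, 328 and 675 CPM in LP, 709, 412 and 735 CPM in ML and 663, 287 and 665 CPM in basal cells, and passed in no comparison. Atp5g2 had 854, 718 and 758 CPM in ML, 729, 536 and 725 CPM in LP and 492, 432 and 581 CPM in basal cells, and was lower in basal cells than in LP (−0.40 ± 0.11, edgeR adjusted p = 0.014) and ML (−0.64 ± 0.11, adjusted p = 0.00058). The difference from LP did not pass without puberty (−0.33) or without estrus (−0.40). Atp5g3 had 237, 164 and 178 CPM in LP, 208, 154 and 178 CPM in ML and 256, 149 and 195 CPM in basal cells, with no comparison passing. Atp5g1 also passed for basal against ML with Leiden clusters as classes (−0.45, edgeR adjusted p = 0.031) and with the second puberty table (−0.29, adjusted p = 0.044).

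Atp5s and Atp5sl, which are not subunits of the synthase, were low. Atp5s had 14.0, 23.3 and 12.1 CPM in ML and 8.88, 10.6 and 10.1 CPM in basal cells (basal over ML −0.71 ± 0.21, edgeR adjusted p = 0.014), which did not pass without estrus (−0.49). Atp5sl had 16.3, 20.1 and 19.995 CPM in LP and 8.39, 11.4 and 13.7 CPM in basal cells (basal over LP −0.78 ± 0.19, edgeR adjusted p = 0.0060), which did not pass without puberty (−0.69).

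The mitochondrial genes are cut from long common transcripts and encode the cores of complexes I, III, IV and V. Between LP and ML cells mt-Nd4 and mt-Cytb differed most. mt-Nd4, a proton-pumping subunit of complex I, had 1107, 788 and 842 CPM in LP, 1676, 1377 and 1428 CPM in ML and 1830, 1362 and 1209 CPM in basal cells. LP overlapped with neither, with −0.72 ± 0.10 for LP over ML (edgeR adjusted p = 0.00023) and 0.68 ± 0.10 for basal over LP (adjusted p = 0.00028).

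mt-Cytb, the cytochrome b of complex III, had 1226, 868 and 834 CPM in LP, 1855, 1520 and 1365 CPM in ML and 1723, 1277 and 997 CPM in basal cells. It was the one mitochondrial gene that differed between basal and ML cells (−0.27 ± 0.10, edgeR adjusted p = 0.045), which did not pass without estrus (−0.28, adjusted p = 0.095) or without diestrus (−0.23, adjusted p = 0.13). LP over ML was −0.70 ± 0.10 (edgeR adjusted p = 0.00027). The LP and ML ranges did not overlap.

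The complex IV core genes lay closer together. mt-Co1, the catalytic subunit, had 1630, 1210 and 837 CPM in LP, 2021, 1695 and 1160 CPM in ML and 1761, 1679 and 913 CPM in basal cells, so that stages spread more widely than lineages. LP over ML was −0.42 ± 0.11 (edgeR adjusted p = 0.0082), and basal over LP, 0.24 ± 0.11, did not pass (adjusted p = 0.089). mt-Co2, which takes electrons from cytochrome c, had 621, 359 and 380 CPM in LP and 824, 509 and 502 CPM in ML cells (−0.43 ± 0.11, edgeR adjusted p = 0.0083), and mt-Co3 1173, 679 and 548 CPM in LP and 1524, 1002 and 813 CPM in ML cells (−0.50 ± 0.11, adjusted p = 0.0035).

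mt-Atp6, the proton channel subunit of complex V, had 1648, 907 and 807 CPM in LP, 2172, 1312 and 1153 CPM in ML and 2158, 1396 and 989 CPM in basal cells (LP over ML −0.48 ± 0.10, edgeR adjusted p = 0.0030). mt-Nd1 had 1609, 1269 and 1279 CPM in LP cells and 2046, 1533 and 1613 CPM in ML cells (−0.32 ± 0.10, edgeR adjusted p = 0.026), which did not pass without puberty (−0.34, adjusted p = 0.092). mt-Nd2 had 280, 114 and 172 CPM in LP and 360, 199 and 262 CPM in ML cells (−0.57 ± 0.12, edgeR adjusted p = 0.0035). mt-Nd5 had 58.8, 39.0 and 33.8 CPM in LP and 69.0, 73.2 and 50.8 CPM in ML cells, and its difference (−0.53 ± 0.18, edgeR adjusted p = 0.036) did not pass without estrus or without diestrus (adjusted p = 0.11 and 0.072).

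The remaining mitochondrial genes were scarce. mt-Nd3 had 15.1, 1.72 and 10.2 CPM in LP, 18.9, 2.52 and 16.2 CPM in ML and 16.0, 2.49 and 17.7 CPM in basal cells. mt-Nd4l had 13.4, 2.29 and 4.73 CPM in LP and 14.97, 3.43 and 6.92 CPM in ML cells, and mt-Atp8 had 9.40, 2.29 and 5.82 CPM in LP and 7.07, 3.89 and 4.04 CPM in ML cells. None of these passed in a lineage comparison, and all were lowest in estrus in each lineage. mt-Atp8 overlaps mt-Atp6 and mt-Nd4l overlaps mt-Nd4 on the genome, so their counts depend on how shared bases were assigned. The 3′ ends of mt-Co1, mt-Co2, mt-Co3, mt-Atp6, mt-Nd3 and mt-Nd4l shared 95.3% to 100% of their 50-base words with another GENCODE transcript, none of a gene in the count table, and the effect of this on their levels was not tested.

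**Figure D4:**
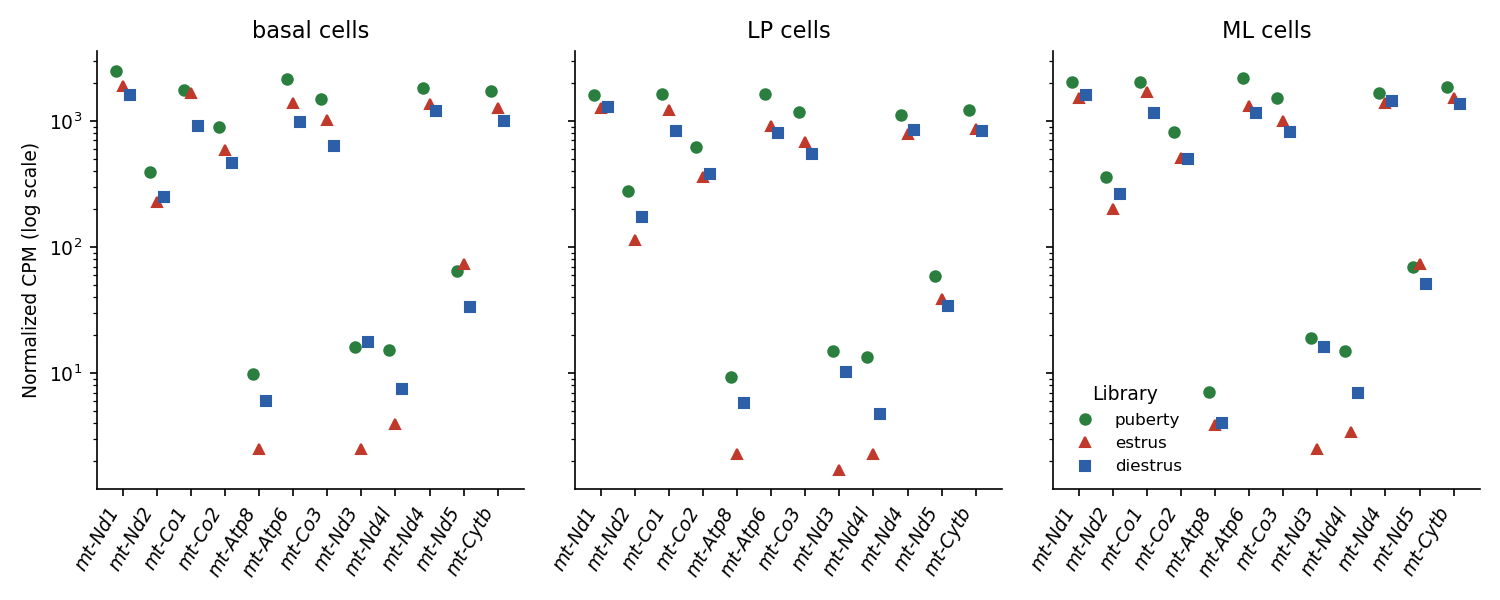
Normalised CPM (log axis) of the 12 tested mitochondrially encoded genes in basal, LP and ML cells, with 1 point per library. The short genes mt-Atp8, mt-Nd3 and mt-Nd4l lie below 20 CPM and are lowest in estrus, whereas most of the others are highest in puberty.

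The genes around the chain were counted from fixed lists. Of 29 tested assembly factors outside the Ndufaf genes, 9 were higher in ML than in LP (31.0%, beside 19.2% of all genes) and 3 in LP (10.3%, beside 21.8%), and 13 were higher in ML than in basal cells (44.8%, beside 25.8%) and 4 in basal (13.8%, beside 29.7%). The largest were Cox17, a copper carrier for complex IV, at −1.20 for LP over ML (edgeR adjusted p = 3.8e-05), and the complex II factors Sdhaf2, at −1.23 (adjusted p = 8.4e-05), and Sdhaf4, at −1.61 (adjusted p = 4.6e-05). Of 12 carriers and electron donors, 5 were higher in ML than in LP (41.7%, beside 19.2%) and 2 in LP (16.7%, beside 21.8%). Slc25a4, an ADP/ATP exchanger of the inner membrane, was higher in basal cells than in LP by 1.76 (edgeR adjusted p = 3.2e-07) and than in ML by 1.60 (adjusted p = 4.3e-07).

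The tricarboxylic acid cycle gave 4 of 13 genes higher in ML than in LP (30.8%, beside 19.2% of all genes) and 1 in LP (7.69%, beside 21.8%). Between basal and LP cells 6 were higher in basal (46.2%, beside 22.7%) and 1 in LP (7.69%, beside 22.6%). Glycolysis was split, with 6 of 16 genes higher in LP than in ML (37.5%, beside 21.8%) and 4 in ML (25%, beside 19.2%). The lactate dehydrogenase gene Ldhb was low in ML cells, at 5.14 for LP over ML (edgeR adjusted p = 4.6e-07) and 5.35 for basal over ML (adjusted p = 2.1e-07). Basal over LP did not pass for it (0.21, edgeR adjusted p = 0.53). Of 12 tested regulators of mitochondrial genes 2 were higher in LP (16.7%) and 1 in ML (8.33%), both below the shares of all genes. Ppargc1b, a coactivator of respiratory genes, was higher in LP by 1.02 (edgeR adjusted p = 0.044), and did not pass in any fit that left out 1 library (0.80 to 1.15). Neither Nrf1 (0.27, adjusted p = 0.27) nor Yy1 (0.20, adjusted p = 0.25) passed for LP over ML.

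The stages were compared within each lineage, to see how members varied over puberty and the ovarian cycle. Each stage had 1 library, so there is no replicate check and no p-value, and stage cannot be told apart from library. Ratios are log2 ratios of CPM normalised within a lineage with 1 CPM added, intervals cover counting error only, and a member was counted as called when past 1.5-fold. Genes with a mean of at least 20 CPM were used, which kept 81 nuclear members in basal cells, 80 in LP and 80 in ML, and 9 mitochondrial ones in each.

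Nuclear members were lower in estrus than in diestrus in all lineages. Past 1.5-fold, 47 of 81 were higher in diestrus in basal cells, 42 of 80 in LP and 38 of 80 in ML, and 0 were higher in estrus in any. The background higher in diestrus was 13.6% of all genes in basal cells, 14.7% in LP and 10.2% in ML, and that higher in estrus 9.95%, 12.3% and 5.77%. Medians of the members were 0.69, 0.66 and 0.45, beside 0.05, 0.01 and 0.01 for all genes. Ribosomal protein genes had medians of 0.84, 0.82 and 0.89, so the shift was not seen in the members alone.

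Members differed greatly in this ratio. Atp5e had 462, 77.3 and 492 CPM in basal cells of puberty, estrus and diestrus, a log2 ratio of diestrus over estrus of 2.66 (95% interval 2.51 to 2.84), and Ndufa3, a small membrane-arm subunit, had 91.6, 16.3 and 117 CPM and 2.78 (2.503 to 3.21). Atp5k, subunit e of the synthase, had 207, 30.9 and 177 CPM in basal cells and 2.48 (2.26 to 2.78). Puberty and diestrus lay close together for these genes and estrus alone was low. In LP cells Uqcrq led, with 170, 46.4 and 263 CPM (2.48, interval 2.18 to 2.83), and in ML cells Ndufa3, with 156, 32.2 and 176 CPM (2.42, interval 2.18 to 2.73).

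At the other end were members with no deficit in estrus. Cox7a2l had 575, 660 and 534 CPM in basal cells (−0.31, interval −0.38 to −0.23). Sdha had 101, 105 and 104 CPM in basal cells, 112, 135 and 118 CPM in LP and 94.8, 132 and 103 CPM in ML cells, with ratios of −0.01, −0.19 and −0.35. Ndufs1, the largest matrix-arm subunit of complex I, had 27.5, 42.3 and 31.4 CPM in LP cells (−0.42, interval −0.88 to 0.02). By complex, the median in basal cells was 1.39 for complex IV, 0.95 for III, 0.69 for I, 0.67 for V and 0.20 for II.

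The size of the ratio moved with transcript length. In basal cells the median ratio of diestrus over estrus was 2.36 for the 5 nuclear members under 500 bases, 1.15 for the 31 from 500 to 750 bases, 1.22 for the 13 from 750 to 1000, 0.24 for the 23 from 1000 to 2000 and 0.23 for the 9 from 2000 to 4000. Of the 49 members under 1000 bases 39 were past 1.5-fold, and of the 32 longer ones 8. Spearman's rho of ratio and length was −0.65, −0.64 and −0.64 over the nuclear members in basal, LP and ML cells, as a description over genes.

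Genes outside the set showed the same order at a smaller size. All other genes had medians of 1.49 (46 genes under 500 bases), 0.41, 0.14, 0.10 and −0.02 over the same lengths in basal cells, and ribosomal protein genes under 500 bases had 1.85. The ratio of puberty over diestrus, which leaves out the estrus library, showed little relation to length in the nuclear members (rho −0.02, −0.02 and −0.18). Over all genes its rho was 0.17, 0.13 and 0.04 in basal, LP and ML cells. That of puberty over estrus was −0.10, −0.12 and −0.07, and that of diestrus over estrus −0.25, −0.22 and −0.11. Among members of at least 1000 bases the mean over lineages of the median ratio of diestrus over estrus was 0.16, beside 0.60 for all nuclear members. The part of transcript length in the estrus values was not tested.

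**Figure D5:**
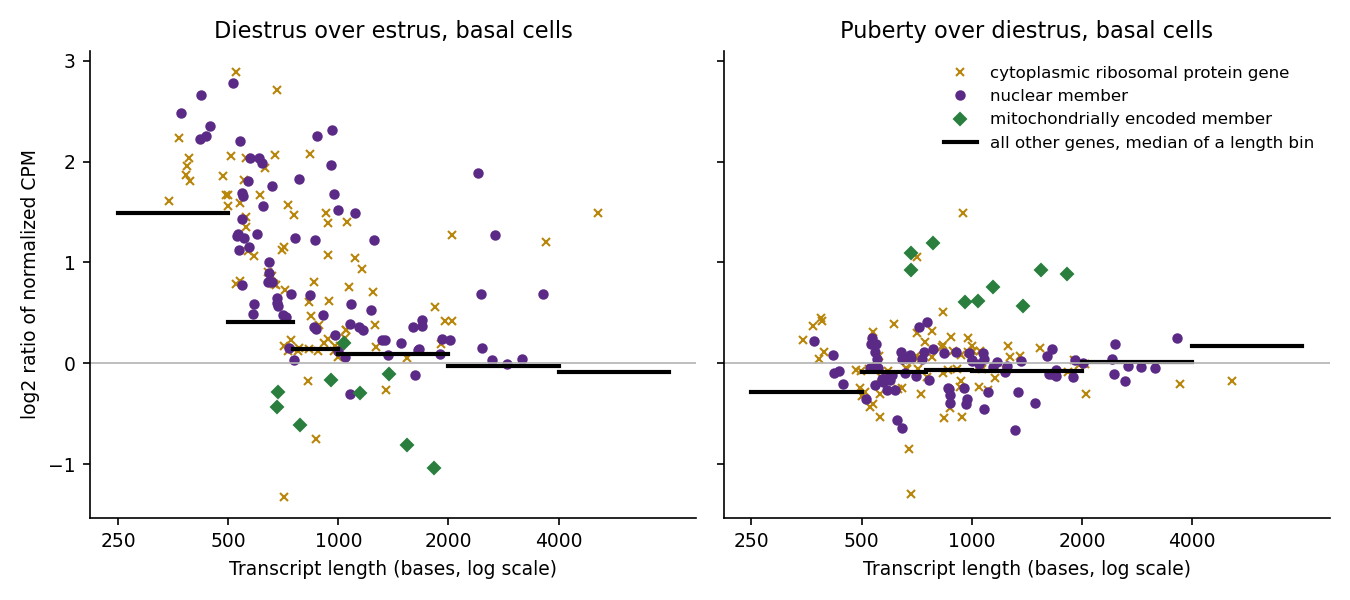
log2 ratio of normalised CPM in basal cells against transcript length (log axis), for diestrus over estrus (left) and puberty over diestrus (right), with 1 point per nuclear member, mitochondrial member or ribosomal protein gene and black lines at the median of all other genes per length bin. On the left the nuclear members under 500 bases have a median of 2.36 and those from 1000 to 2000 bases one of 0.24, and on the right the nuclear members lie around 0.

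Puberty stood above the mean of the adult stages for nuclear members, with medians of 0.33, 0.26 and 0.31 in basal, LP and ML cells. Past 1.5-fold, 12 of 81, 12 of 80 and 10 of 80 were higher in puberty and 0 in the adult, beside 8.33%, 7.63% and 6.86% of all genes higher in puberty and 8.99%, 6.88% and 4.03% higher in the adult. This rested on the estrus library. Against diestrus alone the medians were −0.04, −0.07 and 0.03, and against estrus alone the mean of the medians over lineages was 0.64, beside 0.30 against both.

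Some members differed from both adult libraries in the same direction. Cox4i1 had 2129, 1560 and 1599 CPM in basal cells of puberty, estrus and diestrus and 2386, 1677 and 1779 CPM in LP cells. Puberty was above both adult libraries, by 0.45 and 0.41 in basal cells and 0.51 and 0.42 in LP. Ndufaf7, a methyltransferase needed to assemble complex I, was lower in puberty, with 22.0, 30.1 and 35.4 CPM in basal and 28.7, 38.0 and 44.5 CPM in ML cells, by −0.43 and −0.66 in basal cells. Ndufs1 was lower in puberty in ML cells, with 33.5, 52.3 and 47.2 CPM (−0.63 against estrus and −0.48 against diestrus).

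Mitochondrially encoded members were higher in puberty than in the adult in every lineage. Medians against the adult mean were 0.61, 0.60 and 0.49 in basal, LP and ML cells, all 9 tested genes had ratios above 0 in each, and 5, 6 and 4 were past 1.5-fold, beside the 8.33%, 7.63% and 6.86% of all genes. mt-Atp6 had 2263, 1425 and 1056 CPM in basal cells, with puberty above estrus by 0.67 and above diestrus by 1.10. mt-Co3 had 1558, 1036 and 679 CPM there, 0.59 above estrus and 1.20 above diestrus. For diestrus over estrus the medians of these 9 were −0.29, 0.00 and −0.16 in basal, LP and ML cells, with 1, 5 and 3 ratios above 0. mt-Nd2 was lowest in estrus in all lineages, by 0.20, 0.65 and 0.39, as were the scarce mt-Nd3, mt-Nd4l and mt-Atp8.

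In basal cells 3 of the 9 mitochondrial genes were past 1.5-fold lower in diestrus than in estrus, beside 9.95% of all genes. In LP 1 of 9 was higher in diestrus, beside 14.7% of all genes. In ML 0 were past it in either direction, beside 10.2% of all genes higher in diestrus and 5.77% in estrus. mt-Co1 had 1847, 1714 and 975 CPM in basal cells, 1434, 1101 and 793 CPM in LP and 2092, 1769 and 1209 CPM in ML, and was lowest in diestrus in all lineages, by −0.81, −0.47 and −0.55 against estrus. mt-Nd4 had 974, 717 and 798 CPM in LP cells, with diestrus 0.15 above estrus (interval 0.06 to 0.25). Scaling by the total count in place of TMM moved the median of all genes for puberty over the adult mean by −0.12 (basal), −0.24 (LP) and −0.19 (ML). It moved the mean over lineages of the mitochondrial medians from 0.57 to 0.37. The median share of counts on mitochondrial genes per cell was 0.97% in puberty, 0.91% in estrus and 0.68% in diestrus over all barcodes, and the part of cell handling in these values was not tested.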

How the data were processed

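Single mammary epithelial cells were profiled with the 10x Genomics Chromium 3′ assay. The deposited tables hold counts of molecules per gene and barcode, which the authors made with Cell Ranger 2.0 on mm10 per the submitters' processing notes, without normalization. Members and lists were chosen with earlier results of these data known.

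Cell classes were rebuilt from 8 markers per lineage and signatures free of members, mitochondrial and ribosomal protein genes, and a difference from the study may come from these rebuilt names. Barcodes were used as deposited, cells with at least 3 of 5 markers of another cell type were left out, no doublet caller was run, and an alternative dropped the 5% of cells with the most counts. Counts were summed per class and library (9 pseudobulks) and tested with edgeR 4.0.16 in R 4.3.3 (TMM, filterByExpr, library block, quasi-likelihood test, Benjamini-Hochberg threshold 0.05), after a check on simulated counts. CPM values are TMM-normalised, fitted fold changes are log2, and stage ratios used log2 of CPM plus 1 within a lineage. DESeq2 1.42.0 was an alternative. Seed cells, Leiden clusters (scanpy 1.11.5), the second puberty table, both tables summed, other filters and leaving out each library were also tried. Where counts are given, intervals are 95% and cover counting error only.

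Named genes were all mitochondrial members and isoforms, for each lineage comparison the 5 nuclear members with the largest change each way that passed and kept direction in all libraries, the largest in each complex, and for stages the 3 highest and 3 lowest, from which examples are given, with further subunits for contrast. Transcript lengths and positions came from GENCODE M21 and promoters from RefSeq on GRCm38.p6. Of 105 members 2 shared at least 20% of the 50-base words of their last 500 bases with another gene of the table (Ndufb2 and Atp5h), and 13 nuclear and 6 mitochondrial members with any other GENCODE transcript, so their counts depend on how such reads were placed.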

Additional observations from a re-analysis of the deposited data

How the results depend on the processing

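The mean over lineages of each median stage ratio kept its sign in the alternatives run, except the puberty ratio of nuclear members, which was −0.029 against diestrus alone. No named lineage difference that passed in the main fit or in the alternative changed direction. Differences that passed in neither could change sign, as Ndufs4 did for basal over LP (0.0039 without cells with stromal markers). Stage ratios of single genes were not rerun. Members higher in LP than in ML (3) numbered 1 without the library term, in Leiden clusters and at an adjusted p of 0.01, and 0 to 2 when 1 library was left out, while those higher in ML (63) numbered 5 without the library term and 46 to 58. For basal against LP, the 26 higher in basal cells became 2 without the library term, 17 in seed cells, 13 at 0.01 and 13 to 25, and the 11 higher in LP became 1, 7 in Leiden clusters, 5 at 0.01 and 2 to 9. For basal against ML, the 6 higher in basal cells became 3 with DESeq2, 2 without the library term, 3 in seed cells, 2 in Leiden clusters, 3 at 0.01 and 3 to 3, and the 45 higher in ML became 10 and 32 to 45. The fit without the library term leaves the stages in the residual spread. Of 2784 values of the genes given in the text under the other alternatives, 2592 kept their side of the threshold, 160 lost it and 32 gained it. Of those that passed in either fit, 0 turned. Atp5b passed for LP against ML in 7 of them (−0.27 to −0.29). mt-Co1 passed for basal against LP in 4 of them.

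The mean over lineages of the median ratio of diestrus over estrus went from 0.60 to 0.23 for nuclear members with the trend with transcript length removed and to 0.16 for transcripts of at least 1000 bases, and from −0.15 to −0.46 for mitochondrial members with the trend removed, alternatives chosen after seeing the data like those against 1 adult library. For puberty over adult, nuclear members went from 0.30 to 0.12 with the total count, 0.10 as a mean over cells, 0.16 with the trend removed, 0.074 for long transcripts, −0.029 against diestrus and 0.64 against estrus. Mitochondrial members went from 0.57 to 0.37, 0.36 as a mean over cells, 0.49 with the second puberty table, 0.70 with a minimum of 5 CPM, 0.49 for long transcripts, 0.65 against diestrus and 0.47 against estrus. The causes were not tested. Members under about 20 CPM rest on few counts, which limits their ratios. The lineage comparisons were paired by library, as the library term. For the stages, no paired analysis was possible because each stage had 1 library.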
